A study of Oryza sativa with 4 samples.

Results

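Potassium transporter and channel genes of rice leaves were compared between plants kept at 30% CO2 and plants kept in ordinary air. The set consists of genes whose symbol or synonym is HAK, HKT or AKT followed by a number. Membership rests on the name, but the set was chosen with earlier results of these data known. The gene table names 33 such genes, and 24 of them had a probe set of their own on the array, among 17905 genes that did: 22 of 25 HAK genes, 1 of 7 HKT genes (HKT1;5) and the 1 AKT gene (AKT1). HAK6, HAK19, HAK24 and 6 HKT genes were not analysed here. HAK proteins (the HAK/KUP/KT family) carry potassium across membranes, many of them together with protons, and include the high-affinity uptake systems of the root. AKT proteins are voltage-gated channels of the Shaker family, and HKT proteins carry sodium, or sodium together with potassium. In leaves, potassium sets turgor and stomatal opening and balances charge in the cytosol and vacuole.

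All plants were of cultivar Senia, were at the vegetative 2 stage, and spent 6 h in the dark at 27 ± 2 °C. In the treated group the bags around the plants were sealed and CO2 was injected to 30%, whereas the control group had 0.04% CO2, and the labels do not say whether it was bagged. Each group had 2 biological replicates, each a pool of leaves from 10 plants, measured on 1 Affymetrix rice array. Because each sample is a pool, the p-values below measure the spread between pools and not between plants.

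The deposited values are log2 signals, in which a difference of 1 is a 2-fold change. The medians of the 4 samples lay between 3.85 and 3.92. Of the leaf markers, 8 genes were matched. Their median signal per sample was 11.61 to 12.56, and RBCS, for the small subunit of Rubisco, lay between 13.63 and 13.65 in all 4 samples. The 13.65 of control replicate 1 was the highest signal of that sample, so a change in RBCS may not be measurable. Of the leaf list, 3 genes fell (PSAH, GLO1 and 1 of 3 genes named FNR) and 5 did not pass. GLO1 passed narrowly (limma adjusted p = 0.04996). The FNR that fell was LOC4342399, whose names do not mark it as a leaf form. Its probe set has a name ending in _s_at and may also pick up related transcripts. The brighter LOC4339874, also named Os-LFNR1, did not pass, at a log2 fold change of -0.55. The summed linear signal of the leaf list was 37126 and 35182 under CO2 against 44018 and 44192 in controls. The part of the leaf list in the results below was not tested. The 10 matched genes of the root list had medians of 3.99 to 4.95. The summed linear signal of the root list was 1328 and 1573 under CO2 against 1497 and 1184 in controls, so that the groups overlapped, and 1 of its genes rose (SCR1), 2 fell (IRT1 and LSI6) and 7 did not pass. LSI1 and LSI2, the silicon transporters of the root, were at 6.41 to 7.03 and at 2.52 to 2.63. Not all genes of the root list were low: LSI6 was at 7.53 to 8.88. Whether each gene of the list is particular to roots was not tested. NAAT1, the brightest of the root list, was at 9.13 to 10.08 and so weighs most in its summed signal. The guard cell list had no named gene, so the share of guard cells was not checked. In leaf RNA from mixed tissue, fewer cells of a type and less RNA per cell cannot be told apart.

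The potassium genes moved in both directions. In limma's test, with p-values adjusted over all genes and a threshold of 0.05, 6 of the 24 genes fell under 30% CO2 (HAK17, HAK13, HAK2, HAK25, HAK16 and HAK23), 5 rose (HAK7, HAK15, HAK9, HAK12 and HAK10) and 13 did not pass. Over all 17905 genes, 31.2% passed, 12.4% higher and 18.8% lower, and 11 of 24 is 45.8%. The median log2 fold change (CO2 minus control) of the 24 genes was 0.017, against -0.079 over all genes. The size of the changes was larger in this set as a description: 11 of 24 genes differed by at least 2-fold, against 19.0% of all genes. These are not the same 11 genes as those that passed. They include HAK22 and AKT1, which did not pass, and leave out HAK12 and HAK10, which did. Both samples of one group lay beyond both of the other in 17 of the 24 genes (9 with CO2 above, 8 with CO2 below), against 67.5% of all genes, 27.7% above and 39.8% below. Without control replicate 1 or without control replicate 2 limma called 0 of the 24 genes and 0 of all genes. The log2 fold changes of the 24 genes ran from -3.57 (HAK17) to 1.59 (HAK7) without control replicate 1. Without control replicate 2 they ran from -3.26 (HAK17) to 1.66 (HAK7). Without CO2 replicate 1, 3 of the 24 genes rose and 4 fell, beside 12.5% of all genes in that fit (5.15% higher and 7.31% lower), since HAK2, HAK23, HAK10 and HAK12 no longer passed.

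**Figure D1:**
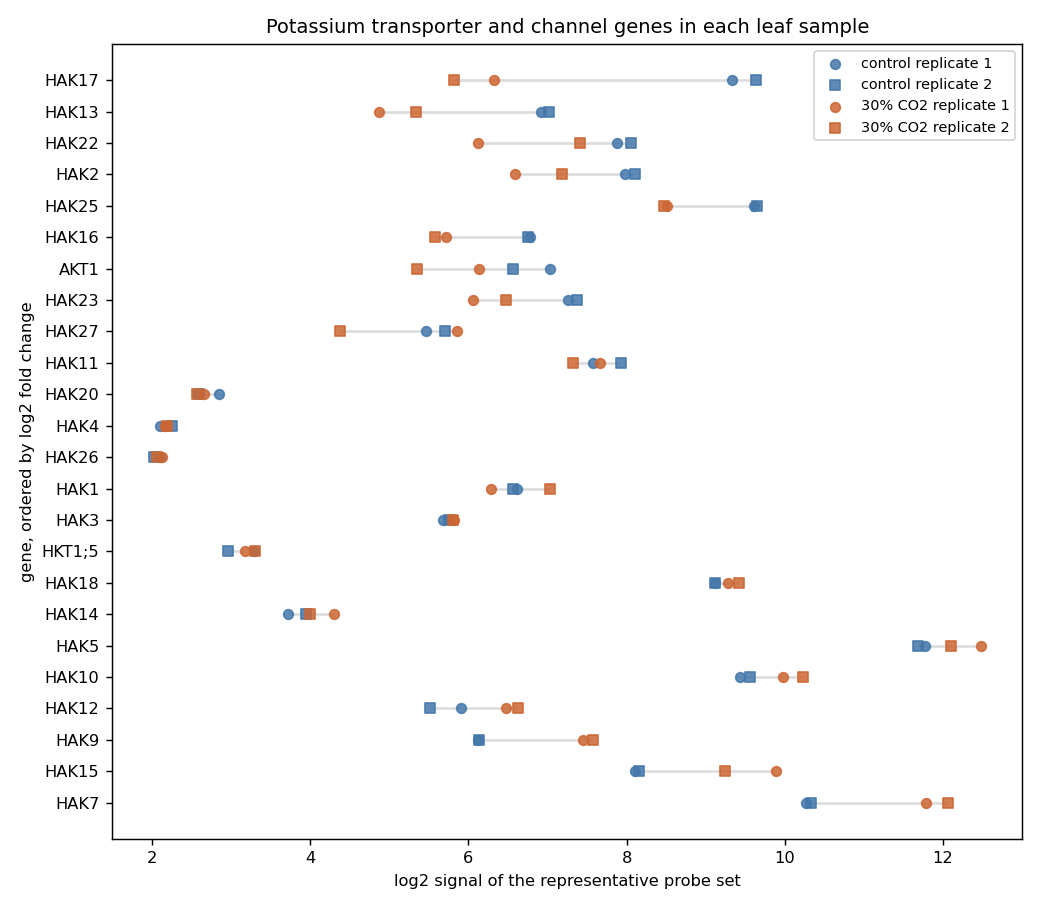
Log2 signal (horizontal axis) of the 24 potassium genes (vertical axis, from the most lowered to the most raised) in each of the 4 samples; circles are replicate 1, squares replicate 2, blue control and orange 30% CO2. HAK17 shows the widest separation, with controls at 9.33 and 9.64 and CO2 samples at 6.33 and 5.82, and HAK7 the widest in the other direction.

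HAK17 (LOC4347211), a member of the HAK family, changed more than any other gene of the set. Its signal was 9.33 and 9.64 in control replicates 1 and 2 and 6.33 and 5.82 in CO2 replicates 1 and 2. The lower control lay 3.01 above the higher CO2 sample. The fall was 10.7-fold, or -3.42 ± 0.22 on the log2 scale (with its standard error; limma adjusted p = 0.00245). A second probe set of the gene gave -3.09 ± 0.27 from controls at 7.71 and 8.15. That probe set is of a kind, with a name ending in _x_at or _s_at, that may also pick up related transcripts, called cross-hybridising below.

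HAK13 (LOC4341805) had signals of 6.92 and 7.01 in controls and 4.87 and 5.34 under CO2. It fell 3.64-fold, a log2 fold change of -1.86 ± 0.19 (adjusted p = 0.0047, limma). The controls stood within 0.091 of each other, and the 2 CO2 samples both lay well below them. HAK13 has 1 probe set, so that no second measurement on the array bears on it.

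The other 4 falls were close to 2-fold each. HAK25 (LOC4330614) went from 9.61 and 9.64 to 8.51 and 8.47, a log2 fold change of -1.14 ± 0.12 (adjusted p = 0.00465, limma). HAK16 (LOC4333298), which in rice takes up potassium in roots and passes it to the shoot under salt stress, went from 6.77 and 6.75 to 5.72 and 5.58, a log2 fold change of -1.12 ± 0.12 (adjusted p = 0.00539). In both genes the replicates of each group were within 0.14 of each other. HAK2 (LOC4326793) went from 7.98 and 8.11 to 6.59 and 7.19 (-1.15 ± 0.23, adjusted p = 0.0212). HAK23 (LOC4346918) went from 7.27 and 7.37 to 6.06 and 6.47 (-1.05 ± 0.18, adjusted p = 0.0145), on a single cross-hybridising probe set. In HAK2 and HAK23 CO2 replicate 1 was the lower of the CO2 samples, and without it neither passed (-0.85, adjusted p = 0.0572, and -0.84, adjusted p = 0.0551, limma).

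HAK7 (LOC4344235), a transporter that gave low-affinity potassium uptake when produced in bacteria, had the largest rise of the set. Its signal was 10.27 and 10.33 in controls and 11.79 and 12.06 under CO2. The rise was 3.09-fold, a log2 change of 1.63 ± 0.15 (adjusted p = 0.00372, limma). A second probe set, of the cross-hybridising kind, gave 1.84 ± 0.19 from controls at 8.00 and 8.49. The groups were thus parted on both probe sets.

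HAK15 (LOC4336950) went from 8.11 and 8.15 to 9.89 and 9.25, a log2 fold change of 1.44 ± 0.24 (adjusted p = 0.0131, limma). The CO2 samples were 0.64 apart and the controls 0.042 apart. It has a single cross-hybridising probe set, so the signal cannot be assigned to HAK15 alone. HAK9 (LOC4344288) went from 6.12 and 6.14 to 7.45 and 7.57, a 2.60-fold rise (log2 fold change 1.38 ± 0.12, adjusted p = 0.00362), with the replicates of each group close together.

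The remaining rises were under 2-fold. HAK12 (LOC9270408), which in rice roots retrieves sodium from the xylem sap, had signals of 5.91 and 5.51 in controls and 6.48 and 6.63 under CO2 (log2 fold change 0.84 ± 0.18, adjusted p = 0.0257, limma). HAK10 (LOC4341573), a potassium transporter of the vacuolar membrane, had 9.44 and 9.56 in controls and 9.98 and 10.23 under CO2 (0.61 ± 0.15, adjusted p = 0.0352). The second probe set of HAK10, of the cross-hybridising kind, gave 0.54 ± 0.12. Adjusted over all 57194 probe sets in place of genes, a setting added after seeing the data, limma gave HAK10 0.0675 and HAK12 0.0501. HAK12 and HAK10 passed neither without CO2 replicate 1 (adjusted p = 0.108 and 0.0671, limma) nor without CO2 replicate 2 (0.115 and 0.0954).

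**Figure D2:**
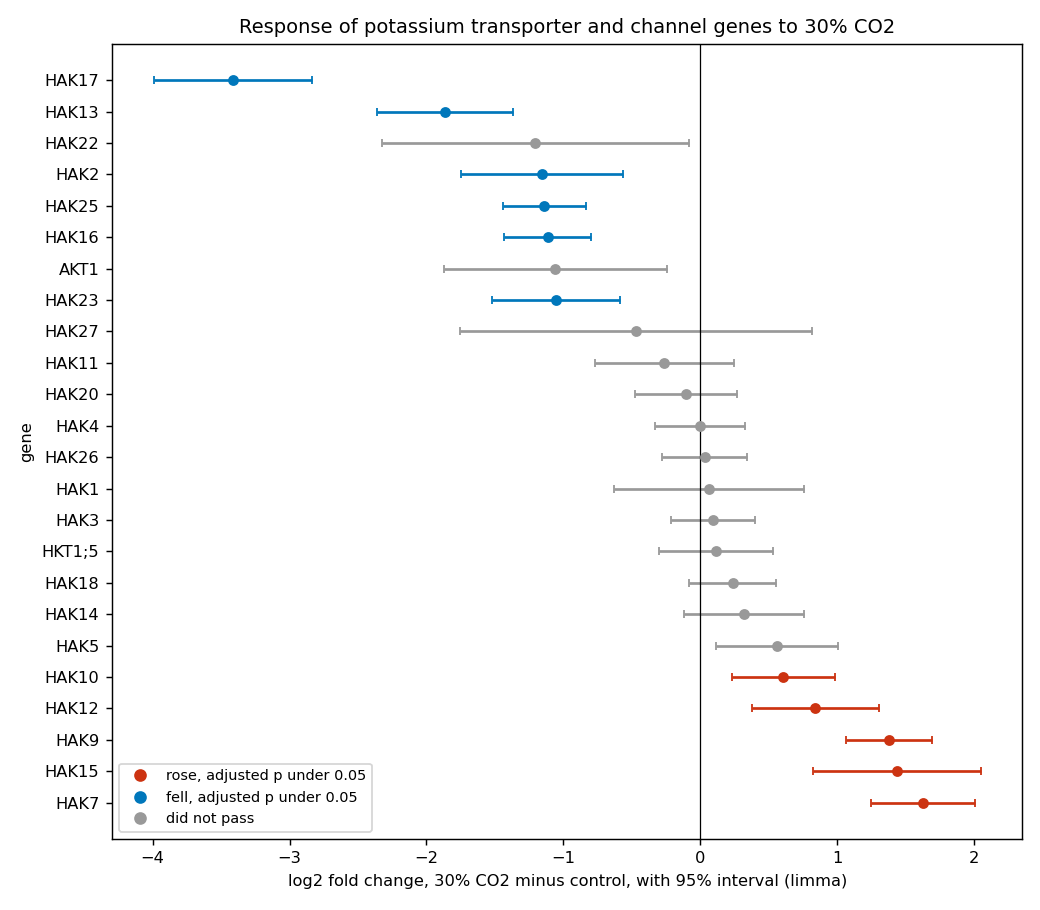
Log2 fold change (30% CO2 minus control, horizontal axis) of the 24 genes with limma's 95% interval, not adjusted for the number of genes; blue marks the 6 genes that fell, red the 5 that rose and grey the 13 that did not pass. The intervals of AKT1, HAK22 and HAK5 leave out 0, although these genes did not pass after adjustment.

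AKT1 (LOC4326245), the inward potassium channel through which rice roots take up much of their potassium, did not pass. Its signals were 7.03 and 6.57 in controls and 6.13 and 5.35 under CO2. Both CO2 samples lay below both controls, but the replicates of a group were up to 0.78 apart. The log2 fold change was -1.06 ± 0.31 (95% interval -1.87 to -0.25; adjusted p = 0.0607, limma), on a single cross-hybridising probe set. HKT1;5 (LOC4327757), which removes sodium from the xylem sap, had signals of 3.29 and 2.96 in controls and 3.18 and 3.30 under CO2, so that the groups overlapped. Its interval ran from -0.30 to 0.53.

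HAK1 and HAK5, known for high-affinity potassium uptake in roots, did not pass either. HAK1 (LOC4335729), on a cross-hybridising probe set, had 6.62 and 6.56 in controls and 6.28 and 7.03 under CO2. One CO2 sample lay below both controls and the other above them (log2 fold change 0.065, 95% interval -0.63 to 0.76). HAK5 (LOC4326945), which takes up potassium at low supply and moves it towards the shoot, had 11.78 and 11.68 in controls and 12.48 and 12.10 under CO2. Both CO2 samples were above both controls, at a log2 fold change of 0.56 ± 0.17 (interval 0.12 to 1.00; adjusted p = 0.0645, limma). It passed without CO2 replicate 2 (0.75, adjusted p = 0.0457). The other probe set of HAK5 gave 0.54 ± 0.46, with 5.55 and 6.91 under CO2 and 5.85 and 5.53 in controls, so that there the groups overlapped.

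HAK22 (LOC4342173) and HAK27 (LOC4333296) showed the widest spread between CO2 replicates. HAK22 had 7.88 and 8.06 in controls and 6.12 and 7.41 under CO2 (log2 fold change -1.20 ± 0.43, adjusted p = 0.0976, limma), on a cross-hybridising probe set. Its other probe set gave -0.46 ± 0.12, which passed where cross-hybridising sets were left out (adjusted p = 0.0473), so the probe sets shared the sign but not the size. HAK22 passed without CO2 replicate 2 (-1.85, adjusted p = 0.0231). HAK27 had 5.46 and 5.71 in controls and 5.86 and 4.38 under CO2, so that the CO2 samples lay on either side of the controls. The direction of HAK27 turned without CO2 replicate 2 (0.27, adjusted p = 0.32).

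The remaining 8 genes, HAK11, HAK20, HAK4, HAK26, HAK3, HAK18 and HAK14 among the HAK genes and HKT1;5 described above, had log2 fold changes from -0.26 (HAK11) to 0.32 (HAK14). For HAK18, with 9.12 and 9.11 in controls and 9.28 and 9.42 under CO2, the 95% interval was -0.08 to 0.56, so that a 2-fold change lay outside it. HAK20, HAK4, HAK26, HKT1;5 and HAK14 had a mean control signal at or below the median of all probe sets (3.86). The files give no detection calls, so none of these 5 genes was shown to be above background, and a change in them may not be measurable. All 11 genes that passed were among the 19 with a higher control signal. Over all genes with a control signal above that median 36.1% passed, and 8.07% of the others.

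The probe sets of 1 gene gave the same sign in each of the 7 genes of the set that have a pair of them (HAK17, HAK22, HAK1, HAK3, HAK5, HAK10 and HAK7). In HAK1 and HAK3 every change was smaller than its standard error, so the shared sign says little there. The brighter probe set of HAK3 is cross-hybridising, and its other one lay at only 2.01 to 2.29. The log2 fold changes of the pairs differed by at most 0.75, in HAK22, and by 0.33 in HAK17.

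**Figure D3:**
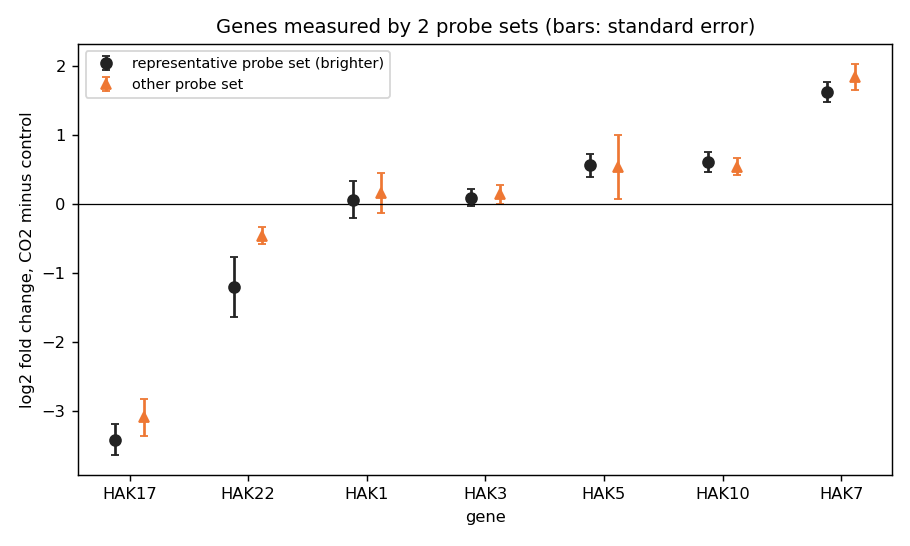
Log2 fold change (vertical axis, with SE) of both probe sets of the 7 genes that have a pair; black circles are the probe set with the higher mean signal, orange triangles the other. HAK17 lies near -3.42 and -3.09 and HAK7 near 1.63 and 1.84, while HAK22 gives -1.20 and -0.46.

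The CO2 replicates did not differ from the controls to the same extent. Over all genes that passed, CO2 replicate 1 was further from the control mean than replicate 2 in 67.9%. Among the 11 potassium genes that passed, replicate 1 was further in 4 (HAK13, HAK2, HAK23 and HAK15) and replicate 2 in 7. The median difference between CO2 replicates was 0.29 over the 24 genes and 0.23 over all genes, and between control replicates 0.11 and 0.17.

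The position of these genes was read from the order of genes in the RefSeq assembly ASM3414082v1, used for order only. HAK9 lies next to a pair of CIPK genes: CIPK29 and CIPK2 adjoin each other, and 1 gene separates CIPK2 from HAK9. All 3 rose, by 1.19 (CIPK29), 3.29 (CIPK2) and 1.38 (HAK9) on the log2 scale. CIPK29 was named after its values were seen. HAK27 and HAK16 are direct neighbours, and HAK16 fell while HAK27 had overlapping groups. Around the 11 genes that passed, the nearest measured gene on either side (22 in all) was called in the same direction in 4 cases and in the opposite direction in 2, and 16 did not pass, so that 6 of 22 were called beside 31.2% of all genes.

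Several potassium channels and transporters of plants are regulated by a calcium signalling pair: CBL proteins bind calcium and recruit CIPK kinases, and in rice CBL1 with CIPK23 activates AKT1. Of 31 measured CBL and CIPK genes 12 rose, 7 fell and 12 did not pass, beside the 31.2% of all genes that passed. CBL1 was not analysed here. The median log2 fold change of the list was 0.23. Without CO2 replicate 1, 6 rose and 4 fell, again beside 12.5% of all genes in that fit.

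CIPK23 (LOC4342410) gave different answers on its 2 probe sets. The one with the higher signal had 8.59 and 8.79 in controls and 8.46 and 8.64 under CO2 (log2 fold change -0.14 ± 0.14, adjusted p = 0.499, limma). The other had 7.13 and 7.16 in controls and 8.03 and 8.04 under CO2, with both CO2 samples above both controls (0.89 ± 0.12, adjusted p = 0.0152 over all probe sets). The mean of both gave 0.37 (adjusted p = 0.127), so that no direction can be given for CIPK23.

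The largest changes of the list were those of CIPK10 and CIPK2. CIPK10 (LOC4332786) fell 13.9-fold, from 10.08 and 10.48 to 6.01 and 6.95 (log2 fold change -3.80 ± 0.35, adjusted p = 0.00379, limma), and its 4 probe sets gave values between -4.85 and -3.79. CIPK2 (LOC4344287) rose 9.76-fold, from 8.69 and 8.05 to 11.88 and 11.42 (3.29 ± 0.28, adjusted p = 0.00334) on a cross-hybridising probe set, while its other probe sets gave 2.65 and 1.03. In neither gene did the groups overlap on any probe set. CIPK16 rose by 2.88 ± 0.46 on a cross-hybridising probe set, and CIPK5 fell by 2.23 ± 0.15.

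CBL4 and CIPK24, named after their values were seen, correspond in rice to the sensor and kinase that activate the sodium and proton exchanger SOS1. CBL4 went from 4.75 and 4.74 to 6.64 and 6.15 (log2 fold change 1.65 ± 0.20, adjusted p = 0.00614, limma). CIPK24 went from 8.20 and 8.43 to 9.48 and 9.65 (1.25 ± 0.15, adjusted p = 0.00601). For both genes the CO2 samples lay above the controls. SOS1 itself was looked for by name and was not among the measured genes.

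The vacuolar channels of the KCO family (also called TPK channels) went in opposite directions. KCO1 (LOC4334137), also named TPKA, a potassium channel of the lytic vacuole, had 6.08 and 6.14 in controls and 6.99 and 6.67 under CO2, higher by 0.71 ± 0.16 on the log2 scale (adjusted p = 0.0272, limma). KCO2 (LOC4342213), also named TPKB, a channel of protein storage vacuoles, had 5.69 and 5.66 in controls and 3.93 and 3.60 under CO2. It fell 3.75-fold, a log2 fold change of -1.90 ± 0.16 (adjusted p = 0.00319), to a level near the median of all probe sets, where signal over background is not known. KCO1 did not pass without CO2 replicate 1 (adjusted p = 0.0862, limma) or when adjusted over all probe sets (0.0529). The list of other channels and exchangers also took in TPK2 and TPK3, which rose by 0.67 and 0.80. In rice these names stand for thiamine pyrophosphokinases, so they are no channels. With them, 3 of 4 measured genes of the list rose and 1 fell, beside 12.4% higher and 18.8% lower over all genes. Of the channels alone, KCO1 rose and KCO2 fell.

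**Figure D4:**
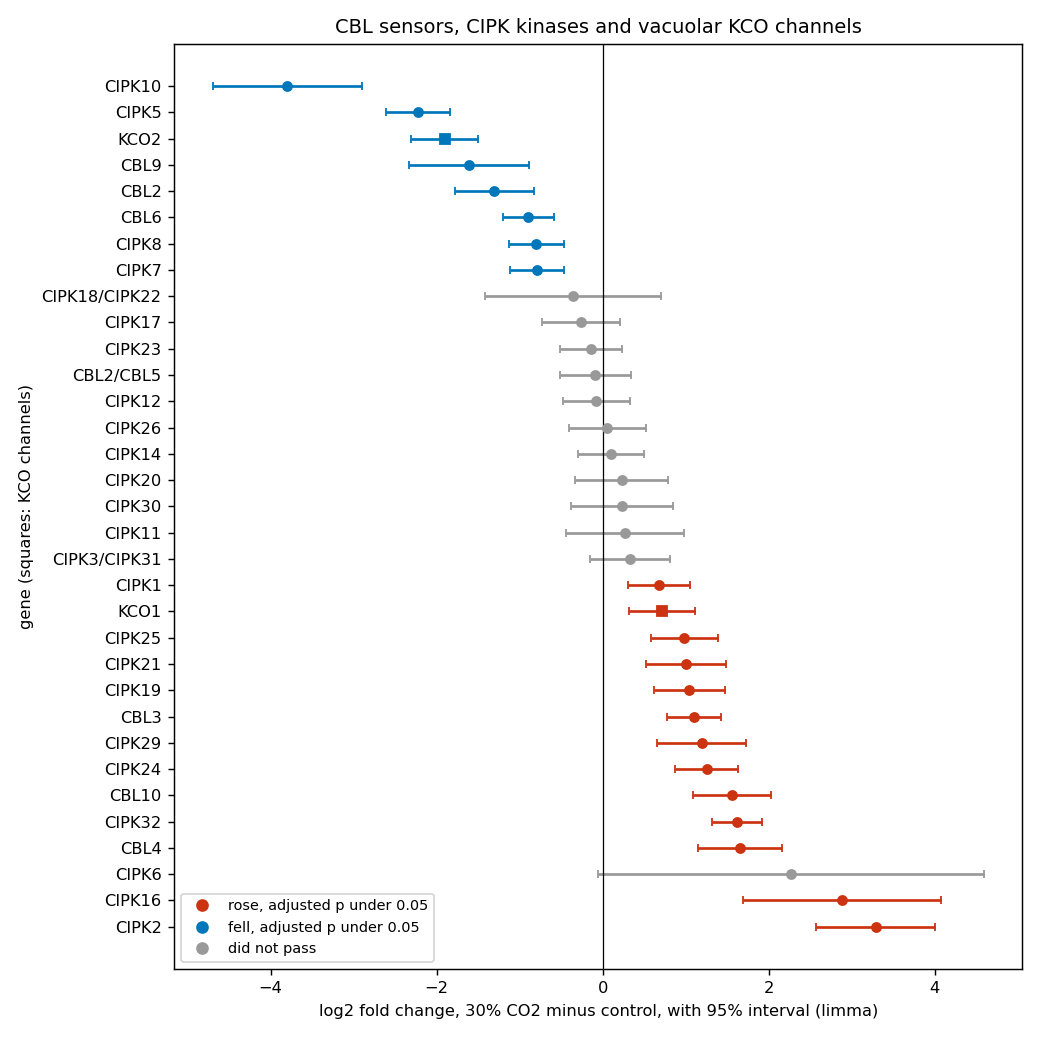
Log2 fold change (30% CO2 minus control, horizontal axis) with limma's 95% interval, not adjusted for the number of genes, of the 31 CBL and CIPK genes (circles) and of KCO1 and KCO2 (squares); red rose, blue fell and grey did not pass. CIPK10 at -3.80 and CIPK2 at 3.29 form the ends of the list.

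The list of proton pumps, whose gradient drives uptake by HAK transporters, had 1 named match. That gene, OSA15, is also named PSAG, a photosystem I subunit and not a pump (log2 fold change -0.21, adjusted p = 0.601, limma), so the pumps could not be described.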

How the data were processed

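Biotin-labelled cRNA was made from total leaf RNA, per the labels' protocols, and measured on rice arrays of Affymetrix. The values deposited by the authors are log2 signals per probe set for 4 samples. The submitters' processing notes name RMA and limma without versions, and a genome build is not given in the sources used here. No rescaling was applied. Of 57194 probe sets, 22436 had 1 gene in the platform annotation and 95 had several. Genes (17905) were named by gene identifier through RefSeq's table, with 1 probe set per gene, the brightest on average.

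The two-sided test of limma 3.58.1 (R 4.3.3; lmFit, then eBayes, without a block) was fitted to all probe sets, with 2 residual degrees of freedom and 2.85 from the prior. The p-values were adjusted by Benjamini-Hochberg over the representative probe sets, with a threshold of 0.05, and fold changes are CO2 minus control. The procedure was also run on simulated data, in which few probe sets changed and only by large amounts. Smaller or more widespread changes, as in these data, were not simulated. Figures used matplotlib 3.10.9 in Python 3.11.15.

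The genes and lists were chosen with earlier results of these data known. All genes of the set are named. From each related list up to 4 genes past the threshold by size of change are named (the 1 of smallest p if none did), and CIPK23. Outside this rule, CIPK29, CBL4 and CIPK24 were named after their values were seen. Probe sets ending in _x_at or _s_at may pick up related transcripts. The number of arrays limits the precision. Alternatives were a replicate block, leaving out each sample, quantile normalization, a filter on dim probe sets, the mean of probe sets, leaving out _x_at and _s_at sets, and a trended prior.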

Additional observations from a re-analysis of the deposited data

How the results depend on the processing

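The direction of the 11 potassium genes that passed was kept in every alternative that measured them, but most alternatives could not change it. A block, a trended prior, the filter and the adjustment leave the log2 fold change as it is. The groups of these 11 genes did not overlap, so leaving out 1 sample could not turn a sign. Only quantile normalization and, for genes with a pair of probe sets, the mean of probe sets could. All 11 passed with means over probe sets, with quantile normalization, with a trended prior (where HAK5 also passed) and with dim probe sets left out. With cross-hybridising sets left out, HAK15 and HAK23 had no probe set left, the other 9 passed and HAK22 joined them. Leaving out 1 sample gave 0 to 4 higher and 0 to 7 lower potassium genes, 0 to 8 higher and 0 to 6 lower CBL and CIPK genes, 0 to 2 higher and 0 to 1 lower other channels, and 0 to 1701 higher and 0 to 2868 lower genes in all. The zeros came from leaving out either control in limma's test, where 2391 and 3064 genes (without control replicate 1) or 2007 and 3134 (without control replicate 2) had an unadjusted p under 0.05, and for the other channels also from leaving out CO2 replicate 1. Without 1 sample, the lone sample is assumed to vary like the other group. The replicate numbers are not stated to pair the samples, and deviations from the group means of CO2 replicate 1 and control replicate 1 correlated at -0.10. In the fit with the replicate block, 3 potassium genes were higher and 7 lower (HAK10 and HAK12 did not pass, AKT1 did), KCO1 did not pass (limma adjusted p = 0.0671), and 1478 higher and 2188 lower genes were found in all. With p-values adjusted over all probe sets, an alternative added after seeing the data, 3 potassium genes were higher (HAK10 and HAK12 did not pass) and 6 lower. In that setting 1599 genes were higher and 2417 lower in all. With the crossed block, also added after seeing the data, 1842 genes were higher and 2883 lower in all. Of the potassium genes, 4 were then higher and 6 lower. Of the genes that did not pass, 6 changed sign when 1 sample was left out, with log2 fold changes of -1.21 to 0.27 (HAK27), -0.31 to 0.44 (HAK1), -0.23 to 0.022 (HAK20), -0.079 to 0.079 (HAK4), -0.0099 to 0.076 (HAK26) and -0.046 to 0.28 (HKT1;5). CIPK23 did so where its probe sets were averaged (0.37). The cause of these shifts was not tested. No detection calls were used, so the level above which a change can be measured is not known.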
